A study of Mus musculus with 15 samples.

Results

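The genes described here code for the oxidative phosphorylation machinery of the mitochondrial inner membrane. They are the 88 genes, of 17097 tested, whose only symbol in the array annotation starts with Ndufa, Ndufb, Ndufc, Ndufs, Ndufv, Uqcr, Cox4i, Cox5, Cox6, Cox7, Cox8 or Atp5, or is Sdha, Sdhb, Sdhc, Sdhd or Cyc1, each read on its brightest probe set. They fall into 34 genes of complex I, 7 Ndufaf assembly factors of complex I, 4 of complex II, 8 of complex III, 17 of complex IV, 17 of complex V and 1 pseudogene symbol, Ndufs5-ps, which was kept apart. No measured value entered this choice apart from brightness, and 81 of the 88 were brighter than the median of all genes, a log2 value of 5.78. A symbol is not always a subunit: Ndufa4, listed here with complex I by its name, is now placed in complex IV, Ndufab1 is also the acyl carrier protein of mitochondria, and Cox7a2l helps to join complexes III and IV into supercomplexes.

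The cells were LSK cells, the fraction of bone marrow without lineage markers that carries Sca-1 and Kit and holds blood stem cells and early progenitors. All donors were female C57Bl/6 mice given 5-fluorouracil before their marrow was taken. Marrow was transduced with the retroviral vector MSCV-HOXB4-ires-YFP, which expresses the homeobox factor HOXB4 with a yellow fluorescent protein, or with MSCV-ires-GFP, which expresses a green fluorescent protein alone, and all recipients were lethally irradiated C57Bl/6 mice. Fluorescent LSK cells were sorted and not cultured, in 5 groups of 3 arrays: HOXB4 at 6, 12 and 20 weeks after transplantation and GFP at 12 and 20 weeks. No GFP arrays of 6 weeks entered, so HOXB4 at 6 weeks was compared only with later HOXB4 arrays. The titles of the samples give 20 weeks for the last time and the text of the series gives 24. The ages of the mice are not given in the labels. Nothing in the labels ties the 3 arrays of a group to separate mice. The spread behind each p-value is that between arrays and may be technical. The sorted cells carried a viral promoter that is active in many cell types, and in whole sorted samples fewer cells of a type and less RNA per cell cannot be told apart.

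The respiratory chain takes electrons from NADH at complex I and from succinate at complex II, passes them through coenzyme Q to complex III, and from there by cytochrome c to complex IV, which hands them to oxygen. Complexes I, III and IV pump protons, and complex V, the ATP synthase, uses their return to make ATP. Blood stem cells are known for quiet mitochondria and reliance on glycolysis, and progenitors that divide and differentiate draw more on oxidative phosphorylation. Most subunits are coded in the nucleus. A few core subunits are coded in mitochondrial DNA, and 0 genes with a mitochondrial symbol were measured here.

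Several measures of the arrays bear on these genes. The Gapdh control probe sets for the 3′ end exceeded those for the 5′ end by 3.76 (log2) on replicate 1 of HOXB4 at 6 weeks, by 2.02 on replicate 3 of HOXB4 at 20 weeks and by 0.81 to 1.71 on the other 13 arrays. Replicates 2 and 3 of HOXB4 at 6 weeks read 1.68 and 1.71, and the HOXB4 arrays at 12 weeks read 0.93, 1.02 and 0.97. Of the 88 genes, 77 had their lowest value on 1 of 3 arrays: 24 on replicate 1 and 30 on replicate 3 of HOXB4 at 6 weeks, and 23 on replicate 3 of HOXB4 at 20 weeks. The median SD of the 88 genes between replicates was 0.287 in HOXB4 at 6 weeks and 0.253 in HOXB4 at 20 weeks, against 0.107, 0.115 and 0.128 in GFP at 12, HOXB4 at 12 and GFP at 20 weeks. The mouse Hoxb4 probe set read 5.81 to 7.05 on the 9 HOXB4 arrays and 6.33 to 6.95 on the 6 GFP arrays, so it did not separate the vectors. The labels do not say whether its probes match the HOXB4 sequence of the vector. The 5 measured LSK markers read 7.89 to 8.79 (Kit), 8.95 to 10.24 (Cd34), 7.40 to 9.49 (Flt3), 4.84 to 8.32 (Slamf1) and 4.87 to 6.65 (Procr) over the 15 arrays. Sca-1 (Ly6a) was not among the named probe sets.

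Over both times, the genes of the respiratory chain mostly read slightly lower in HOXB4 than in GFP cells. The medians were most negative for complex III (-0.37), the complex I assembly factors (-0.32) and complex I (-0.27), while 2 complex IV genes were higher. Differences between complexes were not tested. On the mean of the differences at 12 and 20 weeks, 13 of the 88 genes were lower in HOXB4 cells, 2 were higher and 73 were not called (limma, adjusted p under 0.05). Over all genes tested, 9.16% were called lower, 6.19% higher and 15.4% either way, so the share of these genes that was called in either direction was near the background. The direction was less even than over all genes: 80 of 88 differences were negative, with a median of -0.20, against 48.4% negative and a median of 0.01 over all genes. The median was -0.13 after further quantile normalisation and -0.25 with arrays centred on their medians. In 15 of the 88 genes (17.0%) all HOXB4 arrays lay below all GFP arrays at both times, against 7.21% of all genes. The brightest 10% of genes, a group looked at after the values were seen, had a median of -0.07, 62.2% negative, 13.7% called lower and 15.4% with HOXB4 arrays below at both times. The median size of the differences was 0.21 (log2) in the 88 genes and 0.15 over all genes. Few were large: 4 of the 88 genes reached a size of 0.5 in either direction, against 9.17% of all genes. They were Cox6a2, Ndufaf4 and, not called, Atp5g1 (-0.54 ± 0.26) of the c ring of complex V and the accessory complex I subunit Ndufb2 (-0.51 ± 0.20), the last 2 picked after their values were seen.

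**Figure D1:**
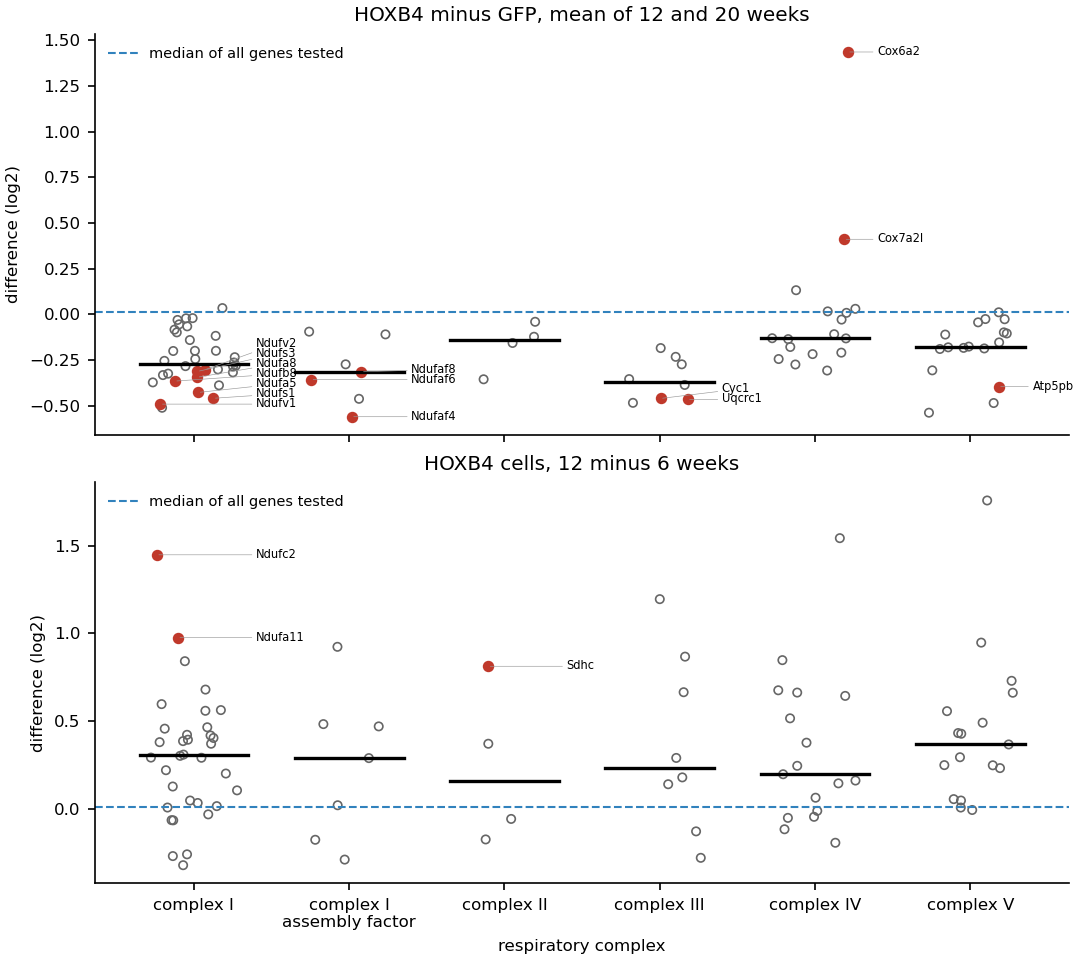
Log2 difference of each gene (circles) by respiratory complex, for HOXB4 minus GFP as the mean of 12 and 20 weeks (top) and for HOXB4 cells at 12 minus 6 weeks (bottom). Filled red points are called at an adjusted p under 0.05, black bars are medians and the dashed line is the median of all genes tested. In the top panel 80 of the 88 differences lie below 0 and Cox6a2 stands alone at 1.44. In the bottom panel 70 lie above 0, with 3 called. The pseudogene symbol is not drawn.

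Complex I, which oxidises NADH, held 34 of the 88 genes and 7 of the 13 that were lower. That was 20.6% of its genes, against 9.16% called lower over all genes. Its 34 genes had a median difference of -0.27, and 33 of 34 were negative. The core subunits carry the flavin, the iron-sulphur clusters and the quinone site. Of the 6 measured core subunits, 4 (66.7%) were lower (Ndufv1, Ndufs1, Ndufs3 and Ndufv2). All 6 were negative, with a median of -0.31. Of the 28 accessory subunits, which surround the core, 3 were lower (Ndufa5, Ndufb8 and Ndufa8), or 10.7%, near the share over all genes. Of these 28, 27 were negative and the median was -0.26. The exception was Ndufa4 (0.03), which is listed here by its name but now placed in complex IV. The split into core and accessory subunits was made after the values were seen, and the difference between them was not tested.

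Ndufv1 binds FMN and takes the electrons from NADH. It read 9.25, 9.25 and 9.26 in GFP and 8.46, 8.82 and 8.76 in HOXB4 cells at 12 weeks, and 9.11, 9.31 and 8.97 in GFP and 8.79, 8.80 and 8.59 in HOXB4 cells at 20 weeks. All HOXB4 arrays lay below all GFP arrays at both times. Its difference was -0.49 ± 0.11 (SE) over both times (limma, adjusted p = 0.00601) and -0.58 ± 0.15 at 12 weeks (adjusted p = 0.044). The call at 12 weeks held in 0 of 6 left-out fits and 8 of 11 other settings. At 20 weeks the difference was -0.41, not called. Its second probe set gave -0.40 ± 0.14 over both times (adjusted p = 0.0673, here and for other second probe sets over all named probe sets).

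Ndufs1 is the largest subunit of complex I and carries iron-sulphur clusters. It read 7.92, 8.0 and 7.99 in GFP and 7.53, 7.52 and 7.41 in HOXB4 cells at 12 weeks. At 20 weeks it read 7.93, 7.89 and 8.08 in GFP and 7.72, 7.59 and 7.27 in HOXB4 cells. The groups did not overlap at either time, and the difference over both was -0.46 ± 0.08 (limma, adjusted p = 0.00176). It was called at 12 weeks (-0.48 ± 0.12, adjusted p = 0.0323) and at 20 weeks (-0.44 ± 0.12, adjusted p = 0.0287). The call at 12 weeks held in 0 of 6 left-out fits and 9 of 11 other settings, and that at 20 weeks in 2 of 6 and 7 of 11. Both were lost with quantile normalisation.

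Among accessory subunits, Ndufa5 read 10.51, 10.40 and 10.34 in GFP against 9.94, 9.99 and 9.84 in HOXB4 cells at 12 weeks, and 10.15, 10.21 and 10.27 against 9.82, 9.98 and 9.76 at 20 weeks. HOXB4 arrays were below GFP arrays at both times, by -0.43 ± 0.08 on the mean (limma, adjusted p = 0.00272). Its second probe set gave -0.40 ± 0.10 (adjusted p = 0.0159). Ndufb8, an accessory subunit of the membrane arm, differed by -0.37 ± 0.09 (adjusted p = 0.0126). It read 9.30, 9.39 and 9.20 in GFP and 8.91, 8.95 and 8.55 in HOXB4 cells at 20 weeks, and a dim second probe set gave -0.08 ± 0.09. Ndufa8, Ndufs3 and Ndufv2, which fall outside the rule for named genes and were picked after their values were seen, differed by -0.35 ± 0.09, -0.31 ± 0.08 and -0.30 ± 0.08. Ndufs3 was no longer called without HOXB4 replicate 1 at 12 weeks or without GFP replicate 2 at 20 weeks (-0.23 to -0.36 over all left-out and other settings). Ndufv2 was not called without HOXB4 replicate 3 at 12 weeks (-0.23 to -0.35). Both calls were also lost with quantile normalisation. The second probe set of Ndufv2 gave -0.15 ± 0.10 (adjusted p = 0.34).

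Assembly factors are not part of the finished complex I but build it. Of the 7 measured, 3 were lower (42.9%, against 9.16% of all genes), all 7 were negative and the median was -0.32. Ndufaf4, which acts early in assembly, had the most negative difference of the 88 genes on the mean of both times, though not at 12 weeks (Ndufv1, -0.58) or 20 weeks (Atp5g1, -0.77 ± 0.36, not called). It read 8.62, 8.67 and 8.67 in GFP and 8.31, 8.32 and 8.13 in HOXB4 cells at 12 weeks, and 8.55, 8.51 and 8.30 in GFP and 7.84, 7.78 and 7.58 in HOXB4 cells at 20 weeks. HOXB4 cells at 6 weeks read 8.70, 8.48 and 8.46, so the 3 HOXB4 arrays at 20 weeks were the lowest of the 15. The difference over both times was -0.56 ± 0.08 (limma, adjusted p = 0.000353) and at 20 weeks it was -0.72 ± 0.11 (adjusted p = 0.000945). A second probe set of Ndufaf4 fell by 0.82 ± 0.16 over both times (adjusted p = 0.00304). Ndufaf6 and Ndufaf8, picked after their values were seen, differed by -0.36 ± 0.11 (adjusted p = 0.0408) and -0.32 ± 0.10 (adjusted p = 0.0419), and each was called in 3 of the 12 fits that left out 1 of the compared arrays. The second probe set of Ndufaf8 gave -0.22 ± 0.10, not called.

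Promoter windows of RefSeq (build GRCm38.p6; 250 bases before to 50 bases after the start, 300 in all) were matched by symbol to 70 of the 88 genes, in 75 windows, and searched on both strands for 6 motifs chosen with the results known. The factor NRF1, Ets factors (GABP is one) and YY1 are known to bind promoters of respiratory genes. CGCATGCG, the NRF1 core, was in windows of 15.7% of these genes against 2.07% of all genes. The Ets core CCGGAAG was in 24.3% against 9.93%, and the YY1 core AAGATGG in 17.1% against 7.28%. CCAAT was in 44.3% against 41.1%, TATAAA in 11.4% against 15.7% and the E-box CACGTG in 8.57% against 8.09%. CGCATGCG and CACGTG read the same on both strands and were counted once, and no motif contains another. Windows of 3 of the 10 matched genes that were lower over both times held the NRF1 core (Ndufaf4, Ndufa8 and, after its start, Uqcrc1). A match is a description of letters and not of binding.

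To show what such a promoter looks like, the core with up to 60 bases on each side, ending no later than the start, is given for the genes called in any comparison whose window holds the NRF1 core before the start, 5′ to 3′ on the strand of the gene with the core in capitals. The core begins 112 bases before the start of Ndufaf4, 9 before that of Ndufa8 and 59 before that of Ndufa11, so the stretch of Ndufaf4 ends short of its start and the others run up to it. The first and the second of these genes were lower in HOXB4 cells over both times, and the third rose between 6 and 12 weeks.
Ndufaf4, chr4:24897911-24898038, + strand: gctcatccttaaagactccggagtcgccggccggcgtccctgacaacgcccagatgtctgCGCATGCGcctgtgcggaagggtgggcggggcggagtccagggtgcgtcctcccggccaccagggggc
Ndufa8, chr2:36049339-36049407, - strand: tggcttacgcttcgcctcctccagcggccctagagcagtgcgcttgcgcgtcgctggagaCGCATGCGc
Ndufa11, chr17:56717643-56717761, + strand: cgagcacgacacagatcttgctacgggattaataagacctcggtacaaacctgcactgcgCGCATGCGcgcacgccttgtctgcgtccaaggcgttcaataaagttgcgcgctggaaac
The letters around the core differ between the 3 stretches, and the array data hold no measure of binding or methylation there.

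**Figure D2:**
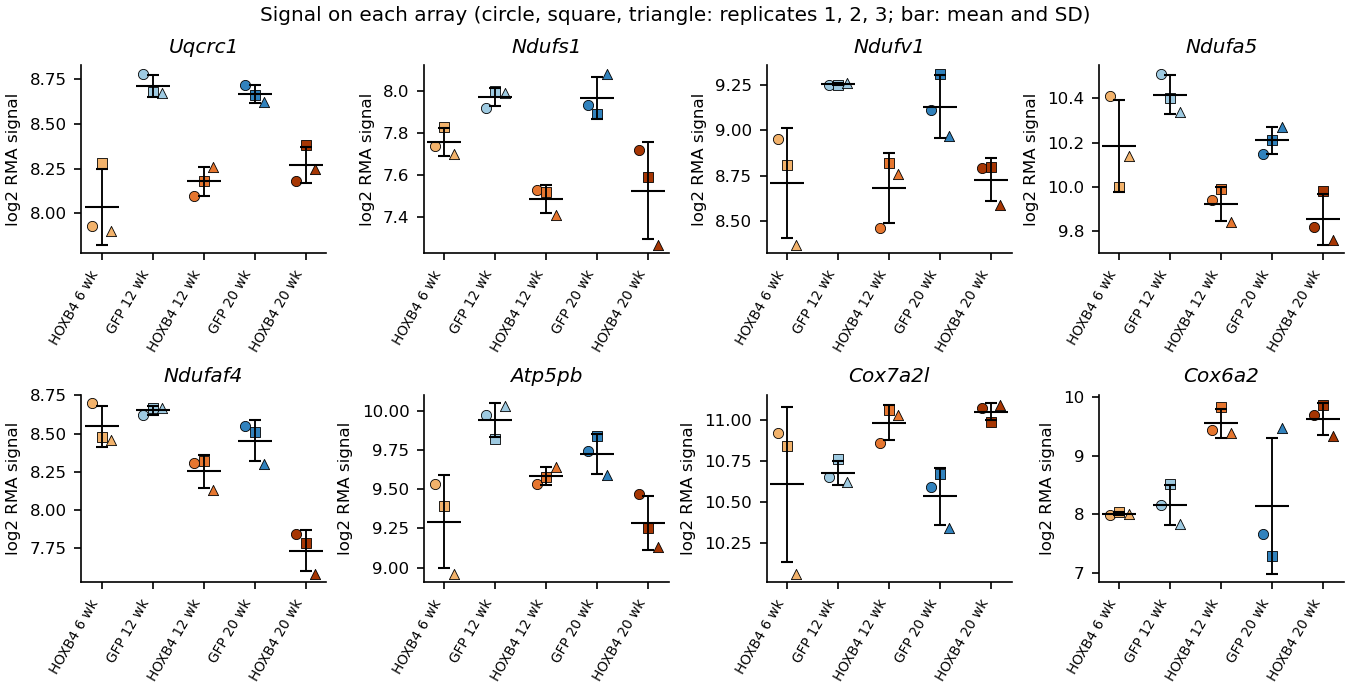
Log2 RMA signal of 8 genes on each of the 15 arrays, by group (circle, square and triangle for replicates 1, 2 and 3), with the group mean and SD. For Uqcrc1, Ndufs1, Ndufv1, Ndufa5, Ndufaf4 and Atp5pb the HOXB4 arrays lie below the GFP arrays at 12 and at 20 weeks. Cox7a2l lies above at both times, and for Cox6a2 replicate 3 of GFP at 20 weeks reads 9.47, inside the range of the HOXB4 arrays.

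Complex II links the chain to the citric acid cycle, and none of its 4 genes was called over both times. Sdha, the flavoprotein that oxidises succinate, differed by -0.04 (95% interval -0.29 to 0.21), and by 0.03 after quantile normalisation. Sdhb, the iron-sulphur subunit, differed by -0.16 (-0.40 to 0.08), and the membrane anchor Sdhd by -0.12 (-0.38 to 0.14). The other anchor, Sdhc, differed by -0.36 (-0.64 to -0.08; limma, adjusted p = 0.0821). It was called under 2 of 11 other settings (only the compared groups, and array weights) and without GFP replicate 3 at 20 weeks.

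Complex III passes electrons from coenzyme Q to cytochrome c. All 8 of its genes were negative, with a median of -0.37. Of them 2 were lower (25%, against 9.16% of all genes): Uqcrc1, a core protein, and Cyc1, the cytochrome c1 subunit. Uqcrc1 read 8.78, 8.68 and 8.67 in GFP and 8.10, 8.18 and 8.26 in HOXB4 cells at 12 weeks, and 8.72, 8.66 and 8.62 in GFP and 8.18, 8.38 and 8.25 in HOXB4 cells at 20 weeks. The groups were separate at both times. The difference was -0.47 ± 0.08 over both times (limma, adjusted p = 0.00138), -0.53 ± 0.11 at 12 weeks (adjusted p = 0.0186) and -0.40 ± 0.11 at 20 weeks (adjusted p = 0.0403). The call at 12 weeks held in 2 of 6 left-out fits and 11 of 11 other settings, and that at 20 weeks in 1 of 6 and 6 of 11. Cyc1 differed by -0.46 ± 0.15 (adjusted p = 0.0486). It read 9.03, 9.03 and 9.09 against 8.42, 8.59 and 8.66 at 12 weeks, and 9.0, 9.23 and 8.98 against 8.88, 8.73 and 8.31 at 20 weeks. It was called in 1 of the 12 fits that left out 1 array (the one without HOXB4 replicate 1 at 20 weeks), with adjusted p between 0.00643 and 0.116 over all settings.

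In complex IV, cytochrome c oxidase, 0 of 17 genes were lower, 2 were higher (11.8%, against 6.19% of all genes), and the median was -0.13. Of the 9 widely expressed subunits none was called and 8 were negative, with a median of -0.18. Cox4i1, the common isoform of subunit 4, differed by -0.21 (95% interval -0.53 to 0.11). The isoforms known from heart, muscle, lung, testis or low oxygen had group means under 5.78, the median of all genes, in all 5 groups, apart from Cox6a2 and Cox6b2. Group means were 3.04 to 3.34 for Cox7b2, 5.33 to 5.52 for Cox4i2, 4.26 to 4.54 for Cox7a1, 5.48 to 5.75 for Cox8b, 5.62 to 5.70 for Cox8c and, for the related Ndufa4l2, 4.98 to 5.23. Their differences over both times were between -0.14 (Cox4i2) and 0.13 (Cox7b2) and none was called. The sign of the difference of Cox7a1 and Cox8c turned when arrays were centred on their medians. Cox6b2, a testis isoform, read 6.92 to 7.76 in group means and differed by -0.28 (-0.61 to 0.06).

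Cox7a2l was higher in HOXB4 cells by 0.41 ± 0.13 (limma, adjusted p = 0.0402). It read 10.65, 10.76 and 10.62 in GFP and 10.86, 11.06 and 11.03 in HOXB4 cells at 12 weeks, and 10.59, 10.67 and 10.34 in GFP and 11.07, 10.99 and 11.09 in HOXB4 cells at 20 weeks. HOXB4 arrays were above GFP arrays at both times. The call was lost in all 12 fits that left out 1 of the compared arrays, with arrays centred on their medians, with the mean of its probe sets and without moderation, while the difference stayed between 0.35 and 0.49 over all settings. Its 2 other probe sets gave 0.37 ± 0.14 and 0.27 ± 0.11, neither called.

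Cox6a2, the subunit 6A isoform of heart and skeletal muscle, showed the largest difference of the 88 genes. It read 7.98, 8.04 and 8.01 in HOXB4 cells at 6 weeks, then 9.44, 9.84 and 9.39 at 12 weeks and 9.70, 9.86 and 9.33 at 20 weeks. GFP cells read 8.15, 8.51 and 7.83 at 12 weeks and 7.67, 7.29 and 9.47 at 20 weeks. The groups were separate at 12 weeks and overlapped at 20 weeks through replicate 3 of GFP. The difference was 1.44 ± 0.28 over both times, a 2.71-fold higher signal (limma, adjusted p = 0.003). It was 1.39 ± 0.39 at 12 weeks (adjusted p = 0.0629) and 1.49 ± 0.39 at 20 weeks (adjusted p = 0.0282). Without replicate 3 of GFP at 20 weeks the difference at 20 weeks was 2.15. The call at 20 weeks was lost without GFP replicate 1 or 2 or without HOXB4 replicate 1 or 2 of that time, while the call over both times held in all 12 left-out fits and 11 other settings. The gene has 1 probe set. Its nearest measured neighbours in gene order, 4931431B13Rik and 9130023H24Rik, differed by -0.07 ± 0.08 and 0.07 ± 0.10 over both times.

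Cox6a2 is also known from plasmacytoid dendritic cells, so 10 markers of those cells were listed after its values were seen, 7 of them measured. On replicate 3 of GFP at 20 weeks, where Cox6a2 was high, the B lymphoid and dendritic gene Ly6d read 9.67, against 5.59 to 7.80 on the other 14 arrays, and the transcription factor Spib read 8.90, against 5.13 to 8.11. Ccr9 (7.14), Irf8 (10.28) and Pacsin1 (5.59) also had their highest value of the 15 arrays there. The other 2 did not: Tcf4 read 8.81 there, below the 9.15 to 9.42 of the HOXB4 arrays at 12 and 20 weeks, and Klk1 read 6.94, in a range of 6.81 to 7.95. In HOXB4 against GFP over both times, Tcf4, a transcription factor these cells need, was higher (group means 9.25 against 8.63 at 12 weeks and 9.29 against 8.29 at 20 weeks), Irf8 was lower and 5 were not called. Of other markers, 4 of 5 for B cells and 5 of 6 for megakaryocytes were higher over both times. At 20 weeks 0 of 5 and 4 of 6 were. In HOXB4 cells at 6 weeks Cox6a2 read 7.98 to 8.04. The B cell markers had array medians of 8.25, 9.44 and 5.75 there, with a mean of 7.81. The mean array medians in GFP at 12 and 20 weeks were 5.52 and 7.45. On replicate 3 of GFP at 20 weeks the B cell median was 8.57, against 7.62 and 6.16 on replicates 1 and 2. The part of any of these cells in the Cox6a2 signal was not tested.

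**Figure D3:**
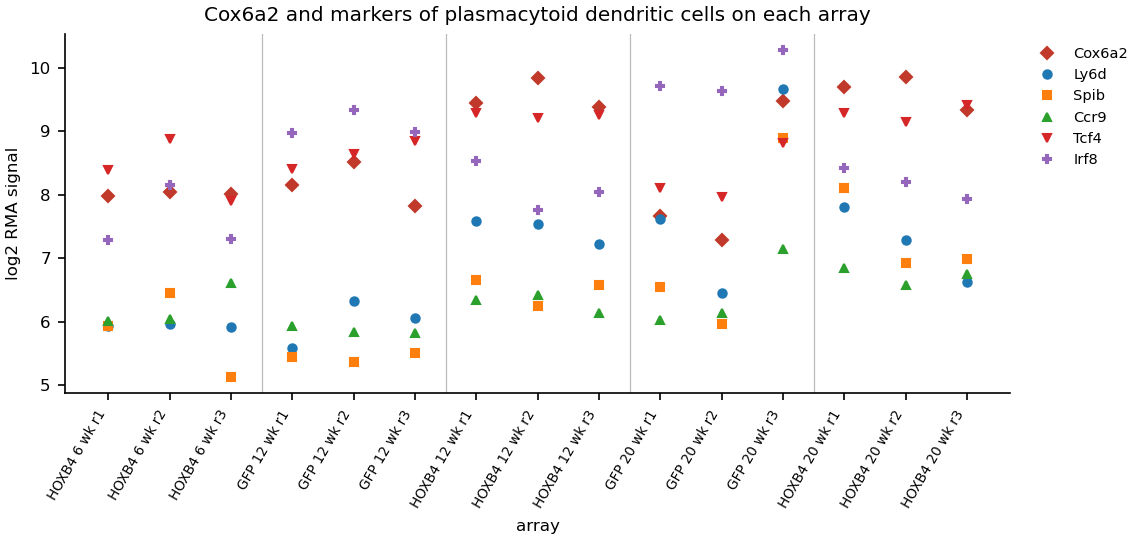
Log2 RMA signal of Cox6a2 (red diamonds) and of 5 genes marking plasmacytoid dendritic cells on each of the 15 arrays, with vertical lines between groups. On replicate 3 of GFP at 20 weeks Cox6a2 reads 9.47, Ly6d 9.67 and Spib 8.90. Levels of different genes are not comparable, since each probe set has its own response.

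Complex V, the ATP synthase, had 1 lower gene of 17 (5.88%, below the 9.16% of all genes), and 16 were negative with a median of -0.18. Atp5pb, the b subunit of the peripheral stalk, read 9.97, 9.82 and 10.03 in GFP and 9.53, 9.58 and 9.64 in HOXB4 cells at 12 weeks, and 9.74, 9.84 and 9.59 in GFP and 9.47, 9.25 and 9.13 in HOXB4 cells at 20 weeks. The groups did not overlap at either time. Its difference was -0.40 ± 0.10 (limma, adjusted p = 0.016). The catalytic F1 subunits Atp5a1 and Atp5b were not called: Atp5a1 differed by -0.19 (95% interval -0.36 to -0.02; adjusted p = 0.114) and Atp5b by -0.18 (-0.48 to 0.13; adjusted p = 0.44).

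The calls at single times were fewer. At 12 weeks 4 of the 88 genes were lower (Ndufv1, Uqcrc1, Ndufa5 and Ndufs1) and 0 higher, with 4.02% of all genes called, 2.20% lower and 1.82% higher. The median was -0.16 and 72 were negative, against -0.02 and 52.8% over all genes. All 6 complex I core subunits had their 3 HOXB4 arrays below their 3 GFP arrays, as did 28 of the 88 genes (31.8%), 20.5% of all genes and 33.9% of the brightest 10%. Leaving out any 1 of the 6 arrays of this comparison left 0 or 1 call, with 1.25% to 2.12% of all genes called. At 20 weeks 4 were lower (Ndufaf4, Ndufb8, Ndufs1 and Uqcrc1) and 1 higher (Cox6a2), with 8.95% of all genes called, 5.18% lower and 3.77% higher. After further quantile normalisation the split at 20 weeks was 2 lower and 2 higher. The median was -0.23 and 79 were negative, and 24 genes (27.3%) had all HOXB4 arrays below all GFP arrays, against 12.5% of all genes and 22.2% of the brightest 10%. Leaving out replicate 3 of HOXB4 at 20 weeks, one of the arrays with a high Gapdh 3′ signal, brought the median to -0.12 and left 1 lower and 1 higher, with 6.89% of all genes called. It brought the median over both times to -0.13, with 10 lower and 1 higher and 13.2% of all genes called. Leaving out GFP replicate 1 or GFP replicate 2 left 1 call at 20 weeks, with 5.19% and 4.67% of all genes called, and leaving out HOXB4 replicate 1 gave 8, all lower, with 9.12% of all genes called.

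By complex the medians at 12 and at 20 weeks were -0.19 and -0.28 (I), -0.12 and -0.16 (II), -0.30 and -0.41 (III), -0.05 and -0.12 (IV) and -0.12 and -0.21 (V). The 9 widely expressed subunits of complex IV had -0.10 and -0.21, and its 7 tissue isoforms, most of them dim, 0.02 and -0.02. Arrays were separate, with HOXB4 below, for 3 of 8 complex III genes (37.5%) at 12 weeks and 6 of 8 (75%) at 20 weeks. The shares were 47.1% and 26.5% in complex I, 0% and 0% in II, 5.88% and 11.8% in IV and 23.5% and 29.4% in V. Over all genes they were 20.5% and 12.5%, and among the brightest genes, as grouped above, 33.9% and 22.2%.

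The effects at both times were alike in sign for most genes: 66 were negative at both times, 3 positive at both (Cox6a2, Cox7a2l and Cox8c) and 19 of opposite sign. Across the 88 genes the differences at 12 and 20 weeks had a Pearson r of 0.76, or 0.55 without Cox6a2, and r was 0.55 across all genes. These are descriptions across genes, which share the same arrays and are not independent replicates. None of the 88 genes was called in the difference of the effects (20 minus 12 weeks), where 0.509% of all genes were called. With limma, 0 of the 88 had an unadjusted p under 0.05, against 9.8% of all genes. The median difference of the effects was -0.08, and 0.05 without replicate 3 of HOXB4 at 20 weeks.

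**Figure D4:**
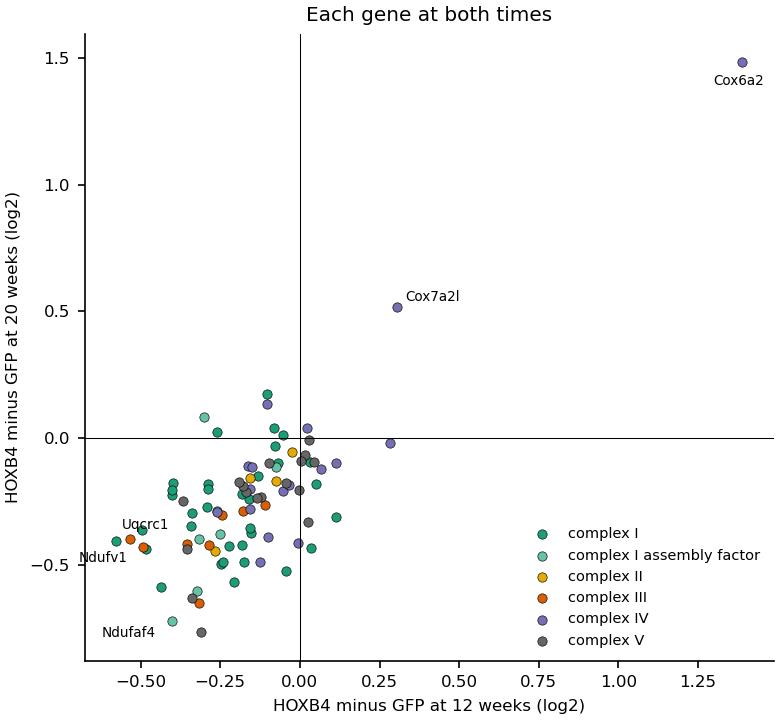
Difference between HOXB4 and GFP cells (log2) at 12 weeks (horizontal axis) and at 20 weeks (vertical axis), 1 point per gene, coloured by complex. The pseudogene symbol, of opposite signs, is not drawn. Of the 88 genes, 66 lie below 0 on both axes. Cox6a2 lies at 1.39 and 1.49, and Cox7a2l at 0.31 and 0.52.

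In HOXB4 cells most genes of the chain read higher at 12 than at 6 weeks. Of the 88 genes 70 had a positive difference and the median was 0.29, against 0.01 over all genes, with 3 called higher and 0 lower. Over all genes 1.57% were called, 1.25% higher and 0.316% lower. The arrays at 12 weeks were above those at 6 weeks for 34 genes (38.6%), against 12.8% of all genes and 28.5% of the brightest 10%. The 71 genes of the cytosolic ribosome also had a positive median, 0.22, and the brightest 10% of genes had 0.13. Among markers of other cells, those of neutrophils had a median of 2.55 (1 of 8 called), B cells 1.41 and granulocyte-monocyte progenitors -0.64 (0 called of either). Their part in the result was not tested. By complex the medians were 0.30 (I), 0.16 (II), 0.23 (III), 0.20 (IV) and 0.37 (V). Within complex I the median was -0.01 for the 6 core subunits, of which 3 were negative, and 0.37 for the 28 accessory subunits. Within complex IV it was 0.51 for the 9 widely expressed subunits and -0.05 for the 7 tissue isoforms. Differences between these subgroups were not tested.

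The 3 genes that rose were Ndufc2, Ndufa11 and Sdhc. Ndufc2, an accessory subunit of complex I, read 6.94, 8.76 and 8.71 at 6 weeks and 9.48, 9.70 and 9.57 at 12 weeks, and rose by 1.45 ± 0.34 (limma, adjusted p = 0.0499). Replicate 1 at 6 weeks, with the highest Gapdh 3′ signal, was by far its lowest array, and without it the rise was 0.85 and still called. Ndufa11, another accessory subunit and one of the genes whose promoter is printed above, read 7.47, 8.36 and 8.07 at 6 weeks and 8.71, 9.13 and 8.99 at 12 weeks, a rise of 0.98 ± 0.22 (adjusted p = 0.0399), and a dim second probe set gave 0.01 ± 0.18. Sdhc read 6.91, 7.55 and 7.02 at 6 weeks and 7.94, 7.89 and 8.08 at 12 weeks, a rise of 0.81 ± 0.19 (adjusted p = 0.0448). Larger rises that were not called included Atp5g2, a c ring subunit of complex V picked after its values were seen, which read 6.86, 9.50 and 9.46 at 6 weeks and 10.29, 10.46 and 10.34 at 12 weeks (1.76 ± 0.49; limma, adjusted p = 0.0794). As for Ndufc2, the low array was replicate 1 at 6 weeks. The number of calls depended on single arrays: 15 without replicate 2 at 6 weeks, 1 without replicate 1 and 2 without replicate 3 of that time, and 0 without any 1 of the arrays at 12 weeks. The share of all genes called moved with them, to 5.40%, 0.708% and 1.43% without replicates 2, 1 and 3 at 6 weeks and to 0.298% or less without an array at 12 weeks. Further quantile normalisation gave 0 calls and a median of 0.17. Without the 2 arrays of high Gapdh 3′ signal, a choice made after the data were seen, the median was 0.31 and 5 genes were called, with 1.80% of all genes called. That fit kept replicates 2 and 3 at 6 weeks. Their Gapdh 3′ minus 5′ differences, 1.68 and 1.71, were above those of the HOXB4 arrays at 12 weeks, 0.93 to 1.02. Time and this measure cannot be told apart in this comparison, and its part in the rise was not tested.

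Between 20 and 12 weeks none of the 88 genes was called in HOXB4 cells, where 0.252% of all genes were, nor in GFP cells, where 2.37% were. In HOXB4 cells 72 of the 88 differences were negative with a median of -0.13, against 52.2% and -0.01 over all genes. Without replicate 3 of HOXB4 at 20 weeks the median was -0.02 and 47 were negative. In GFP cells the median was -0.03. With limma 6 and 4 of the 88 had an unadjusted p under 0.05, against 11.2% and 13.1% of all genes. At 20 against 6 weeks in HOXB4 cells 2 rose and 1 fell, with 4.66% of all genes called, 3.30% higher and 1.36% lower. Cox6a2 rose by 1.62 ± 0.39 (limma, adjusted p = 0.0328). Atp5o, a peripheral stalk subunit of complex V, read 9.23, 9.70 and 9.53 at 6 weeks and 10.26, 10.20 and 9.71 at 20 weeks, a rise of 0.57 ± 0.15 (adjusted p = 0.0458). Its other probe set differed by 0.11 ± 0.18, not called, and adjusted over all probe sets the rise missed the threshold (adjusted p = 0.0502). Ndufaf4 fell by 0.81 ± 0.11 (adjusted p = 0.00337). Each rise was lost in 4 of 6 left-out fits and after quantile normalisation, while the fall of Ndufaf4 held in all 6 left-out fits. Without replicate 3 at 20 weeks 8 genes were higher and 1 was lower (4.12% of all genes called), and without replicate 2 at 6 weeks 9 were higher and 1 lower (6.53%).

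By level, the median over the 88 genes of each array was 8.94 to 9.38 in HOXB4 at 6 weeks, 9.70 to 9.85 in GFP at 12, 9.51 to 9.73 in HOXB4 at 12, 9.62 to 9.78 in GFP at 20 and 9.05 to 9.54 in HOXB4 at 20 weeks. The 3 arrays of HOXB4 at 20 weeks lay below the 3 of GFP at 20 weeks, while at 12 weeks the highest HOXB4 array equalled the middle GFP array at 9.73. The lowest values were those of HOXB4 replicates 1 and 3 at 6 weeks and replicate 3 at 20 weeks.

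**Figure D5:**
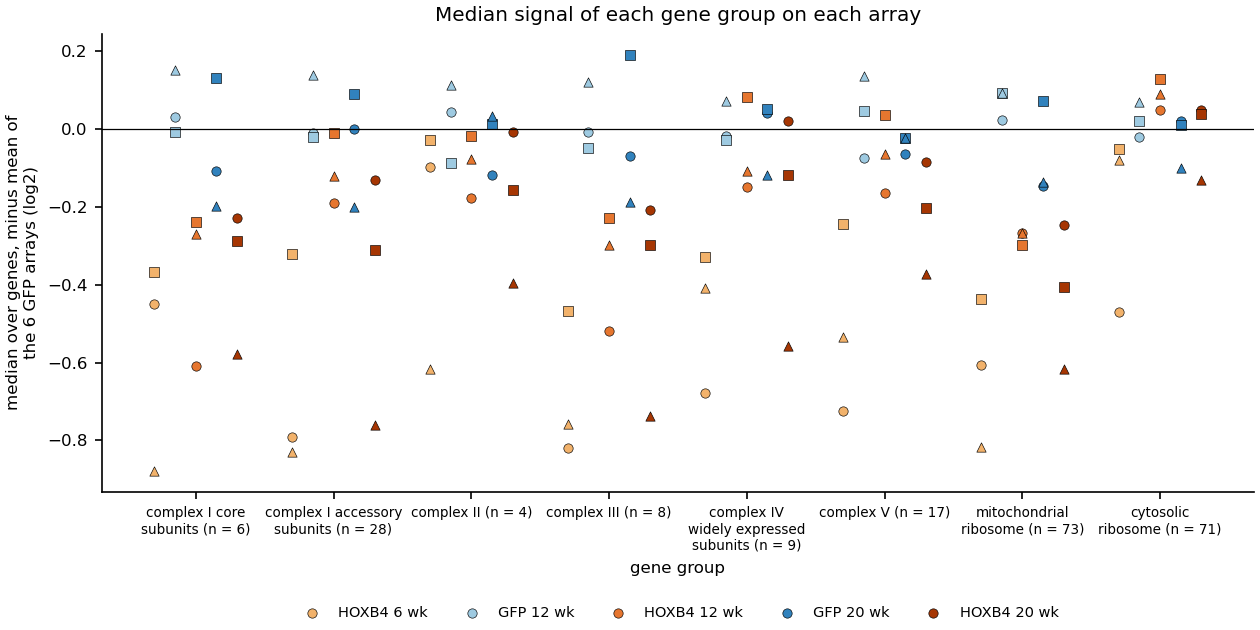
Median log2 signal of each gene group on each array, minus its mean over the 6 GFP arrays (circle, square and triangle for replicates 1, 2 and 3; colours for groups). HOXB4 arrays at 12 and 20 weeks lie below most GFP arrays for the complex I core subunits, complex III and the mitochondrial ribosome. Replicate 3 of HOXB4 at 20 weeks is the lowest HOXB4 array of its time in every group shown.

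Other mitochondrial genes, from lists written with earlier results of these data known, were read the same way over both times. Over all genes 9.16% were called lower and 6.19% higher. Of 73 genes of the mitochondrial ribosome, which makes the mitochondrially coded subunits, 23 were lower and none higher, with a median of -0.32, whereas of 71 genes of the cytosolic ribosome 2 were lower (Rpl7l1 and Rps27l) and the median was 0.00. Among them Mrps2 differed by -0.57 ± 0.10 (limma, adjusted p = 0.00173) and Mrpl33 by -0.53 ± 0.10 (adjusted p = 0.00256). Of 12 genes of the tricarboxylic acid cycle, which feeds NADH and succinate to the chain, 6 were lower and none higher (median -0.31). Idh2 and Idh3a, mitochondrial isocitrate dehydrogenases, fell by 0.58 ± 0.09 and 0.63 ± 0.10, and Suclg1, of succinyl-CoA ligase, by 0.54 ± 0.09. Of 11 genes of pyruvate entry 5 were lower and 1 was higher. The carrier subunit Mpc1 differed by -0.73 ± 0.14. The inhibitory kinases of pyruvate dehydrogenase went both ways, with Pdk3 at -0.74 ± 0.12 and Pdk2 at 0.43 ± 0.11.

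Of 17 regulators of mitochondrial gene expression 6 were lower and none higher. They included Lrpprc, which stabilises mitochondrial mRNAs (-0.60 ± 0.06; limma, adjusted p = 3.7e-05), the coactivator Ppargc1b (-0.80 ± 0.14), and the mitochondrial transcription and rRNA methylation factors Tfb2m (-0.39 ± 0.08) and Tfb1m (-0.44 ± 0.10). Cycs, the cytochrome c that carries electrons to complex IV, was the 1 lower gene of 13 for cytochrome c and coenzyme Q (-0.56 ± 0.14). This was 7.69% of the list, below the 9.16% called lower over all genes. Of 15 complex IV assembly factors 1 (6.67%, also below the share over all genes) was lower, the heme A farnesyltransferase Cox10 (-0.81 ± 0.16). Of 12 assembly factors of complexes II, III and V 2 were lower, Tmem70 (-0.41 ± 0.11) and Sdhaf1 (-0.51 ± 0.15). The adenine nucleotide carriers Slc25a4 (-0.44 ± 0.08) and Slc25a5 (-0.47 ± 0.09) were lower and Ucp1 was higher, of 6 carriers and related genes.

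Markers of other cells differed between the same groups. All 7 markers of granulocyte-monocyte progenitors were lower in HOXB4 cells over both times, with a median of -2.38. Among them Mpo had group means of 12.64 (GFP) and 11.62 (HOXB4) at 12 weeks, against 12.93 (GFP) and 10.81 (HOXB4) at 20 weeks. All 3 eosinophil and 4 of 6 monocyte markers were lower, and 5 of 6 megakaryocyte and 4 of 5 B cell markers were higher. For neutrophil markers the median difference was 1.51 at 12 weeks (1 of 8 higher) and -2.71 at 20 weeks (7 of 8 lower). Over both times 1 of the 8 was lower. Of 4 mast cell and basophil markers 2 were higher and 1 was lower, and of 5 measured LSK markers 1 was higher and 2 were lower. Of 4 T cell markers 1 was higher, none of 6 erythroid and of 5 stromal and endothelial markers was called, and T cell markers read at most 6.12 on any array. The part of these cells in the lower signal of the respiratory chain was not tested.

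Other probe sets of the same genes gave mostly the same direction. Of the 88 genes 41 had more than 1 probe set, 61 further probe sets in all. Over both times 53 of the 61 had the sign of the brightest one, 5 were called, among them those of Ndufa5 and Ndufaf4, and 0 were called in the opposite direction. The tested probe set was of a type that can also detect other transcripts for 44 genes: 30 of type a, which matches several transcripts of 1 gene, 9 of type s and 5 of type x, which can match other genes. Subunit genes such as those of the ATP synthase have processed pseudogenes, so such signals may include close copies.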

How the data were processed

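RNA of 15 samples of sorted cells was measured, 20 ng of total RNA each, amplified with NuGEN reagents per the labels' protocols. The values are the authors' deposited log2 expression values of 45141 probe sets, computed by RMA (background correction, quantile normalisation, summary of probes). The submitters' processing notes name Partek 6.5. Further filters or scaling are not given in the sources used here. Array medians lay between 5.247 and 5.397. The number of arrays limits the precision, no detection calls were used, and low values may be background.

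A single gene symbol was given for 28898 probe sets. The 551 with several symbols and the 15692 outside the annotation stayed unnamed. Symbols were updated through the gene identifier (GRCm38.p6) for 28689. The brightest probe set of each of 17097 genes entered 1 model with a mean per group over all 15 arrays (limma 3.58.1 in R 4.3.3, 10 residual and 4.55 prior degrees of freedom, two-sided, Benjamini-Hochberg over all genes, called at an adjusted p under 0.05). The fit was tested on simulated data. An exact permutation test of 3 against 3 arrays cannot go below 0.1, so calls rest on the model. Errors are standard errors of the model and intervals 95%.

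The genes, lists, tests and alternatives were chosen with earlier results of these data known. Named are up to 8 called genes in each direction per comparison of HOXB4 with GFP, up to 5 per other comparison, and a fixed list of core subunits and isoforms, plus up to 4 genes per other list. The core, accessory and isoform subgroups, the dendritic cell list, the brightest 10% of genes, the motifs, the promoters shown and the fit without 2 arrays were chosen after values were seen. The cytosolic ribosome list leaves out S6 kinases and pseudogenes. Alternatives were averaging the probe sets of a gene, testing every named probe set, removal of the dimmest 1 in 3 genes, quantile normalisation, centring on array medians, only the groups compared, variance moderation with a trend, variances without moderation, weights for arrays, a replicate block and each array left out. Motifs were found by exact letter search.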

Additional observations from a re-analysis of the deposited data

How the results depend on the processing

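Counts of called genes changed as follows, with the share of all genes called in parentheses. At 12 weeks (4 in the reported fit) the count was 2 with quantile normalisation (3.03%), 13 with only the compared groups (15.2%), 14 with array weights (16.3%), 7 (6.64%) without the 2 arrays of highest Gapdh 3′ signal, a setting chosen after seeing the data, and 0 to 1 with 1 array left out (1.25 to 2.12%). At 20 weeks (5) it was 1 with only the compared groups (4.18%), 3 with trend and robust moderation (8.46%), 8 with array weights (12.6%), 2 without the 2 arrays (8.39%) and 1 to 8 with 1 left out (4.67 to 9.27%). Over both times (15) it was 23 with only the compared groups (20.0%), 26 with array weights (23.4%) and 10 to 20 with 1 left out (10.5 to 15.4%). At 12 against 6 weeks (3) it was 0 with quantile normalisation (1.06%) or no moderation (0.129%), 1 with only the compared groups (0.117%) or the replicate block (0.994%), 5 without the 2 arrays (1.80%) and 0 to 15 with 1 left out (0 to 5.40%). At 20 against 6 weeks (3) it was 1 with quantile normalisation (4.55%), no moderation (2.23%), array weights (1.35%) or the replicate block (3.76%), 0 with only the compared groups (0.00585%), 9 without the 2 arrays (4.54%) and 1 to 10 with 1 left out (2.32 to 6.53%). In GFP cells (0) array weights gave 2 (11.1%). The difference of effects and HOXB4 at 20 against 12 weeks gave 0 under the settings run. The causes were not tested.

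Over all genes, centring moved the calls over both times from 1059 higher and 1566 lower to 810 and 1936, and quantile normalisation those at 12 against 6 weeks from 214 and 54 to 91 and 90. The median of the 88 genes over both times was between -0.25 and -0.13 under all settings run. Over both times, Ndufaf4, Ndufv1, Uqcrc1, Ndufs1, Ndufa5, Atp5pb, Ndufb8, Ndufa8 and Cox6a2 were called in 11 of 11 other settings and 12 of 12 left-out fits. Signs turned for small differences that were not called: Sdha to 0.03 with quantile normalisation, Cox7a1 to -0.05 with quantile normalisation, to -0.03 with median centring and to -0.07, -0.02, -0.01 and -0.00 in left-out fits (whole range -0.07 to 0.10), Cox8b to 0.00, 0.02 and 0.06 (range -0.09 to 0.06), Cox8c to -0.02 with centring and in 2 left-out fits (range -0.02 to 0.07), and Ndufa4l2 to 0.01, 0.01 and 0.02 (range -0.07 to 0.02).

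Replicate numbers did not pair the arrays: of 30 pairs of equal number 2 had deviations correlated above 0.1 (range -0.167 to 0.115). With the replicate block 15 genes were called over both times, 4 at 12 weeks, 4 at 20 weeks and 0 in the difference of effects.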
